A study of Mus musculus with 6 samples.

Results

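The 10 genes described here are the transferrin cycle genes Trf, Tfrc and Steap3, the iron transporter genes Slc11a2, Slc39a14 and Slc40a1, the ferritin genes Fth1 and Ftl1, and the iron-regulatory protein genes Aco1 and Ireb2. They were chosen by name, and all 10 were found among the 16135 genes of the expression table. Whole-liver RNA had been sequenced in 6 libraries to learn what ACSS2, an enzyme that makes acetyl-CoA from acetate, does in alcoholic liver disease, with iron balance and hepcidin named in the study's title. The control group, ACSS2-flox, came from mice with a floxed Acss2 gene (n = 3 libraries), and the ACSS2-HKO group from mice with a hepatocyte-specific knockout (n = 3). They are called controls and knockouts below. All mice of both groups were fed ethanol in a Lieber-DeCarli liquid diet over 10 days and then given 1 ethanol binge, so every comparison is within ethanol-fed liver and no group without ethanol was analysed here. The sources used here do not give the Cre line behind the knockout or the age and sex of the mice. Nothing in the labels says that the libraries of a group came from separate animals, so p-values cover only variation among these 6 libraries, which may be technical.

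Liver cells take up iron bound to the blood protein transferrin through the transferrin receptor, reduce it inside endosomes and move it into the cytosol, and they take up iron that is not bound to transferrin through membrane transporters. Iron that is not used is stored in ferritin, a shell of heavy and light chains, and leaves the cell through ferroportin, which the liver hormone hepcidin removes from the cell surface. When cell iron is low, the iron-regulatory proteins IRP1 and IRP2 bind hairpins in RNA called iron-responsive elements. Binding near the start of the ferritin and ferroportin messages blocks their translation, and binding in the 3′ untranslated region (UTR) of the transferrin receptor message protects it from decay. RNA levels therefore follow this control for the receptor more directly than for ferritin, whose translation was not measured.

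The hairpins are printed because they are the sequence feature that ties these genes to 1 control system. A search of the GENCODE transcripts (mm10) used a bulged C, 5 stem bases, the loop CAGTGN and 5 bases that pair with the stem, G with T allowed, on the transcript strand. It found such hairpins in 4 of the 10 genes. Each 28-base window below reads 5′ to 3′ on the transcript strand, with the loop in capitals and the bulged C at base 7.
Fth1, 5′ UTR, chr19:9982732-9982759, plus strand: ttcctgcttcaaCAGTGCttgaacggaa
Ftl1, 5′ UTR, chr7:45459780-45459807, minus strand: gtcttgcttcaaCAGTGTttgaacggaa
Slc40a1, 5′ UTR, chr1:45925466-45925493, minus strand: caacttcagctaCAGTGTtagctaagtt
Tfrc A, 3′ UTR, chr16:32631219-32631246, plus strand: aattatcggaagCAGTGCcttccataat
Tfrc B, 3′ UTR, chr16:32631598-32631625, plus strand: cattatcgggagCAGTGTcttccataat
Tfrc C, 3′ UTR, chr16:32631663-32631690, plus strand: ctatatcggagaCAGTGAtctccatatg
Tfrc D, 3′ UTR, chr16:32631710-32631737, plus strand: aattatcgggaaCAGTGTttcccataat

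The ferritin and ferroportin genes each held 1 hairpin of the searched form, in the 5′ UTR, and Tfrc held 4, all in the 3′ UTR. The letters A to D only give the order of the Tfrc matches along the transcript and are not names of known elements. Elements of less regular shape would be missed in these genes too. Among 9642 tested genes with a protein-coding transcript, 97 (1.01%) held a match in a UTR. Slc11a2, which is known for an iron-responsive element of less regular shape, had no match, and neither had Trf, Steap3, Slc39a14, Aco1 or Ireb2. A missing match says only that these letters are not in these transcripts, and a match is a description of sequence and not of binding.

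FPKM values (fragments scaled by the authors to gene length and library total) implied library totals of 33717125 to 39474527 fragments. An earlier analysis of these data set ACSS2-flox replicate 1 and ACSS2-HKO replicate 3 apart from the remaining 4 libraries, so values without them are given where they matter. Acss2 read 87.8, 61.5 and 58.5 FPKM in ACSS2-flox replicates 1, 2 and 3 and 50.6, 38.4 and 45.7 FPKM in ACSS2-HKO replicates 1, 2 and 3 (log2 fold change -0.60 ± 0.21, limma adjusted p = 0.637). The value covers the whole gene and all liver cells, so it is a weak check of the deletion. In every list of values below the libraries stand in this order.

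None of the 10 genes passed the adjusted threshold of 0.05 by limma, the moderated linear model used on log2(FPKM + 1), and 0% of the 9818 tested genes did so. Limma voom on the recovered fragments also called 0 genes. Of the 10 genes, 9 had a positive log2 fold change, ACSS2-HKO minus ACSS2-flox, and 1, Ireb2, a negative one. The background is itself tilted, with 66.0% of tested genes above 0. The median log2 fold change was 0.37 over the 10 genes and 0.10 over all tested genes. At an unadjusted p under 0.05, Tfrc and Steap3 read higher in ACSS2-HKO and 0 genes lower, against 6.09% of tested genes higher and 1.50% lower. In 3 genes, Trf, Tfrc and Steap3, every ACSS2-HKO library read above every ACSS2-flox library, against 12.5% of tested genes, and in 0 genes every one read below, against 2.94%. The other 7 genes overlapped between the groups.

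The tilt of the background depends on scaling. With median-ratio scaling the median of all tested genes was -0.04 in place of 0.10, and that of the 10 genes 0.20. Tfrc (higher) and Ireb2 (lower) were then the genes whose groups did not overlap, against 6.37% and 7.65% of all tested genes. Quantile normalization and a correction for gene length each gave Trf and Tfrc higher and Ireb2 lower, against 7.23% of all tested genes higher and 7.31% lower with the first and 7.72% and 7.77% with the second. Tfrc was thus higher without overlap in each of these settings, and Trf, Steap3 and Ireb2 varied with the setting.

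**Figure D1:**
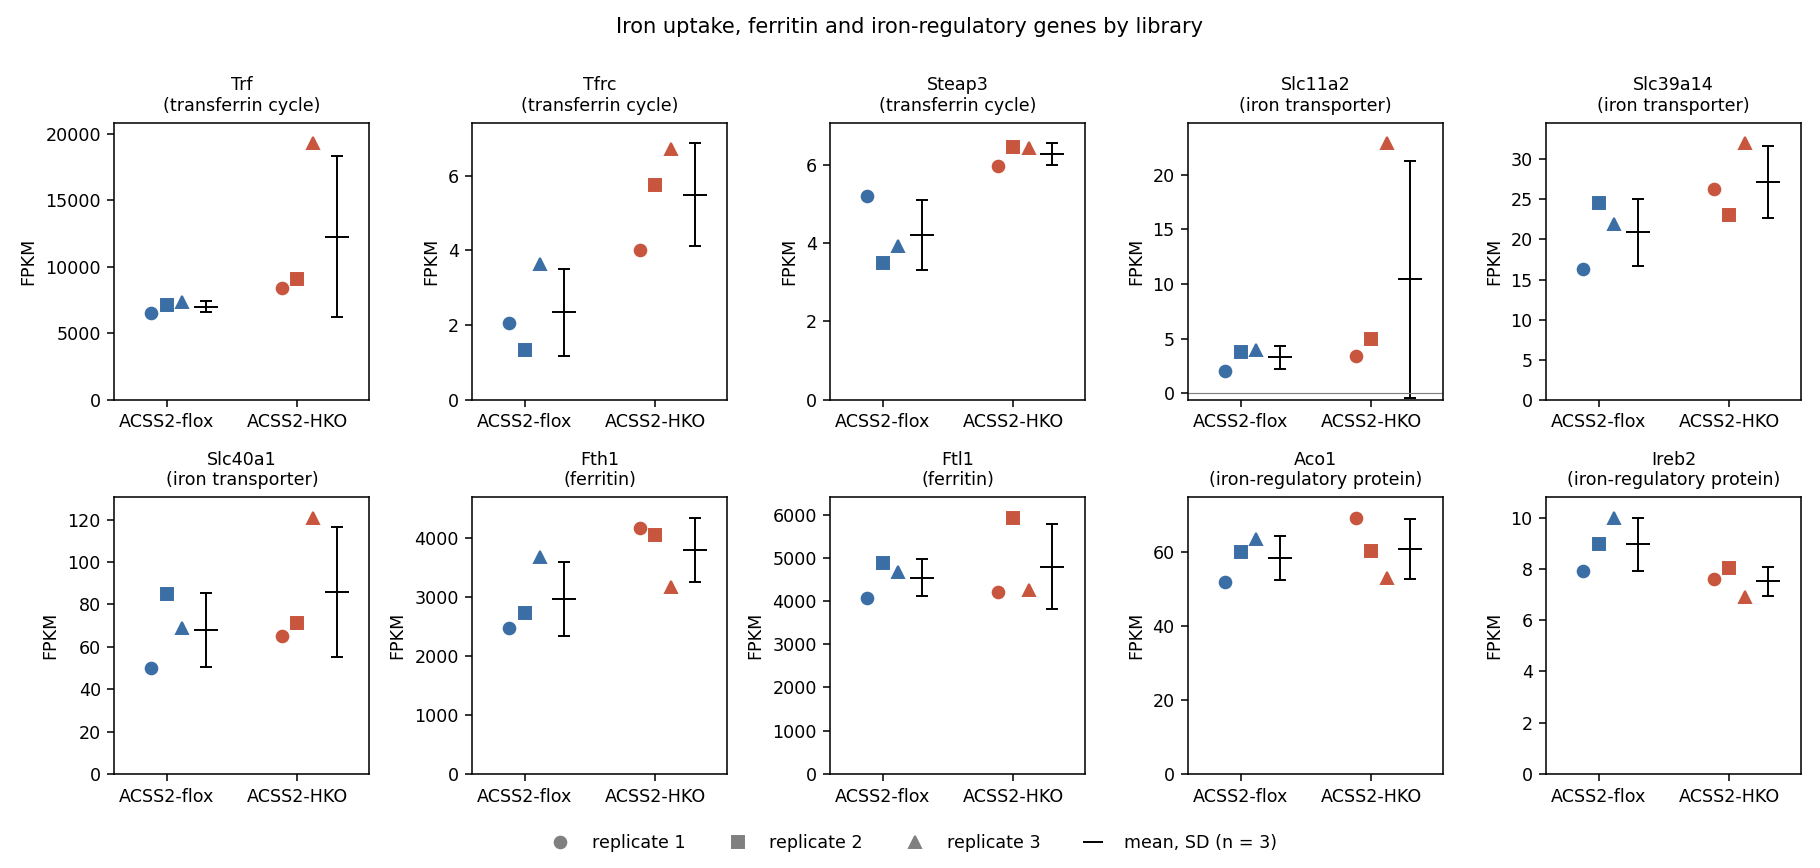
FPKM on linear axes of the 10 genes in each library, with ACSS2-flox in blue and ACSS2-HKO in red, marker shape for the replicate number, and the mean with SD (n = 3) in black. Tfrc, Steap3 and Trf show no overlap between the groups, and in Slc11a2 ACSS2-HKO replicate 3 (22.9 FPKM) stands far above the other libraries (2.06 to 4.95 FPKM).

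Trf (chromosome 9, 103204001 to 103230444) encodes transferrin, the iron carrier that hepatocytes secrete into blood. It read 6528, 7111 and 7356 FPKM in the controls, against 8412, 9104 and 19279 FPKM in the knockouts. The control libraries lay close together, ACSS2-HKO replicates 1 and 2 lay just above them, and ACSS2-HKO replicate 3 lay far above all others. Transferrin ranked 7 of 9818 tested genes by level in the controls. It took 1.52%, 1.66% and 1.72% of all fragments in the controls, against 1.96%, 2.12% and 4.50% in the knockouts, and since FPKM is a share of a library, a gene this abundant lowers the others when it is higher. The means were 6999 ± 425 and 12265 ± 6084 FPKM (SD, n = 3) and their ratio 1.75. On the log2 scale the fold change was 0.70 ± 0.36 (95% interval -0.13 to 1.54, limma adjusted p = 0.673; exact permutation p = 0.1). Without ACSS2-HKO replicate 3 it was 0.32, and without ACSS2-flox replicate 1 as well 0.27, so the size of the difference rested largely on 1 library. An annotated protein-coding gene on the same strand, Gm20425, shares exon sequence with Trf. An exact permutation test has 20 arrangements of 6 libraries here and cannot give a two-sided p below 0.1.

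Tfrc (chromosome 16, 32608920 to 32632794) encodes the transferrin receptor, which carries transferrin-bound iron into cells. It read 2.06, 1.33 and 3.63 FPKM in the controls, against 4.01, 5.74 and 6.73 FPKM in the knockouts. All 3 ACSS2-HKO libraries read above the highest control, although ACSS2-flox replicate 3 and ACSS2-HKO replicate 1 lay close together. The values rest on 357, 254 and 716 fragments in the controls, against 730, 1062 and 1368 in the knockouts. Its level was the lowest of the 10 genes in the controls, at rank 7706 of 9818. The means were 2.34 ± 1.18 and 5.49 ± 1.38 FPKM (SD, n = 3) and their ratio 2.35. Its log2 fold change was 1.0 ± 0.28 (95% interval 0.35 to 1.65), or 0.90 above the median of the tested genes. Its unadjusted limma p of 0.00738 was the 116th smallest of all tested genes, and its adjusted p was 0.607 (exact permutation p = 0.1, the smallest possible).

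Unlike Trf, Tfrc did not hang on ACSS2-HKO replicate 3. With each library left out in turn its log2 fold change lay between 0.77 (without ACSS2-flox replicate 2) and 1.26 (without ACSS2-flox replicate 3). It was 0.87 after the correction for gene length and 1.32 by limma voom on the recovered fragments. A larger pseudocount shrinks low genes, and with 5 in place of 1 the value was 0.52. Over its 18 alternatives the limma adjusted p ran from 0.320 to 1. The cells behind the value were not separated, and in whole-liver RNA fewer cells of a type and less RNA per cell cannot be told apart.

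Developing red cells and dividing cells are known for high transferrin receptor levels, so their markers are given beside Tfrc. The erythroid list had 11 genes in the table, of which 4 stayed under 1 FPKM in every library, and its summed level was 469, 663 and 1274 FPKM in the controls, against 476, 465 and 624 FPKM in the knockouts. All 6 tested erythroid markers had a negative log2 fold change, and 0 reached an unadjusted limma p under 0.05. The 8 proliferation markers summed to 28.6, 43.2 and 51.6 FPKM in the controls, against 39.4, 43.9 and 56.4 FPKM in the knockouts, with overlap. Most of each sum was Pcna, at 26.3 to 34.5 FPKM. The list median, relative to the ACSS2-flox mean on the log2 scale, was -0.71, 0.13 and 0.63 in the controls. It was -0.03, 0.06 and 0.94 in the knockouts, and thus highest in ACSS2-HKO replicate 3, as was Tfrc. All 8 were positive and 0 reached an unadjusted limma p under 0.05; the part of either list in the Tfrc values was not tested. No erythroid or proliferation marker was at 0 in every library.

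Steap3 (chromosome 1, 120190757 to 120272705) encodes the endosomal reductase that turns ferric iron released from transferrin into ferrous iron. It read 5.21, 3.49 and 3.93 FPKM in the controls, against 5.96, 6.44 and 6.42 FPKM in the knockouts. The ACSS2-HKO libraries lay close together and above all controls, and the highest control was ACSS2-flox replicate 1. The means were 4.21 ± 0.893 and 6.28 ± 0.270 FPKM (SD, n = 3) and their ratio 1.49. It had a log2 fold change of 0.49 ± 0.19 (95% interval 0.07 to 0.92), with an unadjusted limma p of 0.0276, an adjusted p of 0.637 and an exact permutation p of 0.1. With each library left out in turn it lay between 0.39 and 0.63, and it was 0.35 with median-ratio scaling, 0.37 after the gene length correction and 0.30 with a pseudocount of 5. ACSS2-HKO replicate 3 was no exception here, at 0.04 on the log2 scale from the mean of the other ACSS2-HKO libraries.

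**Figure D2:**
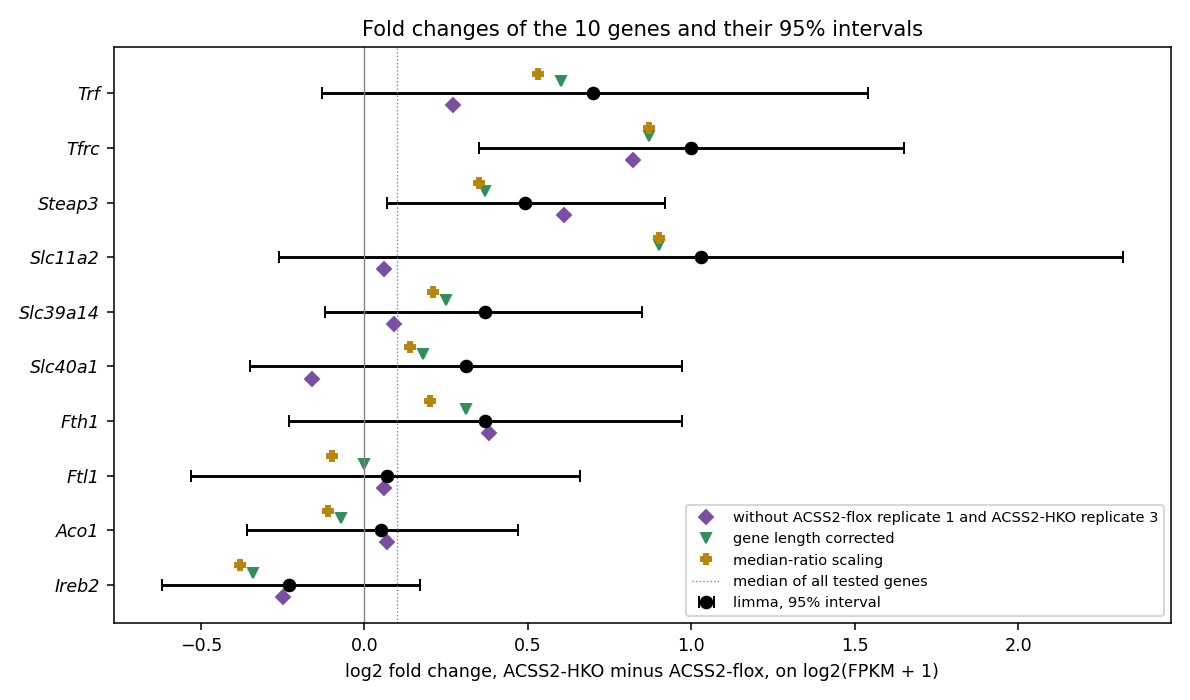
Log2 fold change (ACSS2-HKO minus ACSS2-flox, on log2(FPKM + 1)) of each gene with its 95% limma interval in black, and the values under 3 alternatives as coloured symbols. The intervals of Tfrc (0.35 to 1.65) and Steap3 (0.07 to 0.92) lie above 0 before any adjustment, and Slc11a2 moves from 1.03 to 0.06 when both distant libraries are left out.

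Slc11a2 (chromosome 15, 100387898 to 100425072) encodes DMT1, the transporter that moves ferrous iron out of endosomes and into the cytosol. It read 2.06, 3.81 and 3.99 FPKM in the controls, against 3.40, 4.95 and 22.9 FPKM in the knockouts. The groups overlapped, and the single value of ACSS2-HKO replicate 3, from 5678 fragments against 436 to 1119 elsewhere, made the mean difference. The means were 3.28 ± 1.07 and 10.4 ± 10.8 FPKM (SD, n = 3) and their ratio 3.17, the largest of the 10 genes. On the log2 scale the fold change was 1.03 ± 0.56 (95% interval -0.26 to 2.32, limma adjusted p = 0.682; exact permutation p = 0.3). Without ACSS2-HKO replicate 3 it was 0.29, and without ACSS2-flox replicate 1 as well 0.06. An annotated protein-coding gene on the opposite strand, Gm5475, overlaps exons of Slc11a2, and whether counting used strand is not given in the sources used here.

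Slc39a14 (chromosome 14, 70303469 to 70351425) encodes ZIP14, which takes up iron that is not bound to transferrin, together with zinc and manganese. It read 16.3, 24.5 and 21.9 FPKM in the controls, against 26.3, 23.1 and 32.0 FPKM in the knockouts. The groups overlapped in the middle, with ACSS2-flox replicate 1 lowest and ACSS2-HKO replicate 3 highest. The means were 20.9 ± 4.22 and 27.1 ± 4.54 FPKM (SD, n = 3). Its log2 fold change was 0.37 ± 0.21 (95% interval -0.12 to 0.85, limma adjusted p = 0.692; exact permutation p = 0.2), and without both distant libraries it was 0.09.

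Slc40a1 (chromosome 1, 45908068 to 45926523) encodes ferroportin, the exporter that hepcidin removes. It read 50.1, 84.8 and 68.8 FPKM in the controls, against 64.9, 71.4 and 121 FPKM in the knockouts. ACSS2-flox replicate 1 was again lowest and ACSS2-HKO replicate 3 highest, and the other 4 libraries were mixed. The means were 67.9 ± 17.4 and 85.7 ± 30.7 FPKM (SD, n = 3). It had a log2 fold change of 0.31 ± 0.29 (95% interval -0.35 to 0.97, limma adjusted p = 0.810; exact permutation p = 0.5). It was 0.04 without ACSS2-HKO replicate 3 and turned to -0.16 without both distant libraries.

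Hepcidin RNA was read in the same libraries. Hamp read 2950, 1241 and 897 FPKM in the controls, against 117, 311 and 567 FPKM in the knockouts (log2 fold change -2.43 ± 0.60, limma adjusted p = 0.554), and its copy Hamp2 read -3.37 ± 0.56 on the same scale (adjusted p = 0.452). Hepcidin acts on ferroportin protein, which was not measured, so the Slc40a1 RNA values and the Hamp values are set side by side without a relation being read from them.

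ACSS2-HKO replicate 3 set the size of several of these values. In it, Slc11a2 stood 2.22 above the mean of the other ACSS2-HKO libraries on the log2 scale, Trf 1.14, Slc40a1 0.82, Tfrc 0.41 and Slc39a14 0.37, while the median of all tested genes stood at -0.05. Fth1 (-0.37), Aco1 (-0.28), Ftl1 (-0.23) and Ireb2 (-0.16) went the other way. Steap3 stood at 0.04. Ftl1 and Fth1 were not the lowest of all libraries there, since Ftl1 read 4201 FPKM in ACSS2-HKO replicate 1 and 4264 FPKM in ACSS2-HKO replicate 3, and Fth1 read above 2 of the 3 controls.

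Markers of inflammation and of immune cells moved with it. The 19 acute phase genes, which hepatocytes secrete in inflammation, had a median of 0.61, 0.85 and 2.42 in ACSS2-HKO relative to the ACSS2-flox mean on the log2 scale. All 19 had a positive log2 fold change, and their summed level ran from 10303 to 12437 FPKM in ACSS2-flox and from 15925 to 55790 FPKM in ACSS2-HKO. Over all tested genes 66.0% were positive, which is the background for the counts of positive genes here. The 11 Kupffer cell and macrophage markers, all tested and all positive, summed to 375, 586 and 498 FPKM in the controls, against 750, 697 and 1722 FPKM in the knockouts. The 9 neutrophil markers, 4 of them tested and all 4 positive, summed to 8.04 to 17.5 FPKM in the controls, against 39.0, 54.6 and 355 FPKM in the knockouts, with Ly6g and Mpo at 0 in all ACSS2-flox libraries. Of the tested ones, Retnlg and Csf3r had control means of 0.655 and 0.781 FPKM. They reached the tested mean of 1 FPKM only through ACSS2-HKO, which favours their place among the positive genes. Hepatocyte markers summed to 58414 to 88495 FPKM in the controls, against 49139 to 58095 FPKM in the knockouts, so the libraries read as liver. Of these 8 markers, all tested, 1 was positive and 7 were negative. Their median log2 fold change was -0.31, against 0.10 over all tested genes. The part of these lists in the values of Trf, Slc11a2, Slc39a14 and Slc40a1 was not tested.

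**Figure D3:**
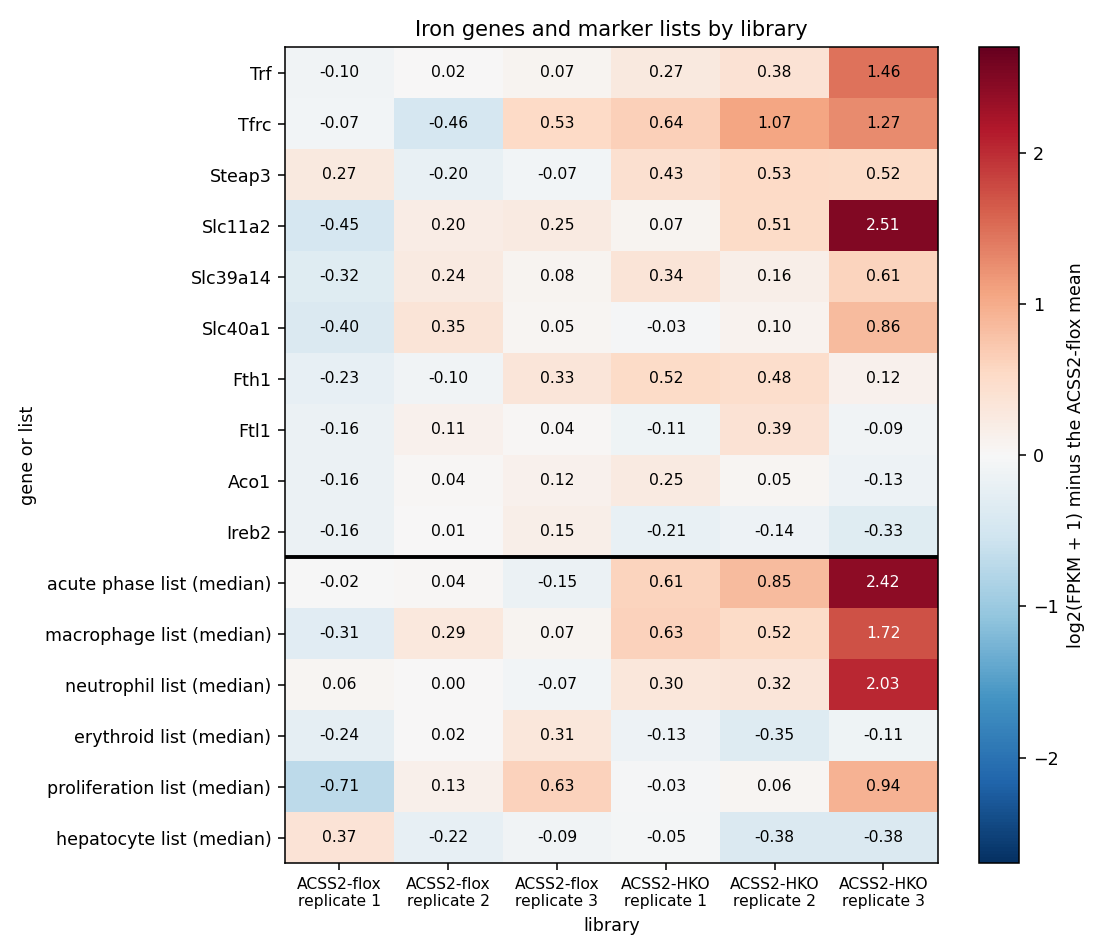
Log2(FPKM + 1) of each iron gene (upper rows) and the median over the genes of 6 marker lists (lower rows) in each library, minus the ACSS2-flox mean. ACSS2-HKO replicate 3 is highest for Trf (1.46), Slc11a2 (2.51) and Slc40a1 (0.86) and for the acute phase (2.42), macrophage (1.72) and neutrophil (2.03) lists, while Steap3 is as high in ACSS2-HKO replicate 2 (0.53) as there (0.52).

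Fth1 (chromosome 19, 9980598 to 9985098) encodes the ferritin heavy chain, which oxidises ferrous iron for storage. It read 2475, 2724 and 3665 FPKM in the controls, against 4163, 4051 and 3171 FPKM in the knockouts. ACSS2-HKO replicates 1 and 2 read above every control, whereas ACSS2-HKO replicate 3 lay within the control range. The means were 2954 ± 628 and 3795 ± 543 FPKM (SD, n = 3) and their ratio 1.28. On the log2 scale the fold change was 0.37 ± 0.26 (95% interval -0.23 to 0.97, limma adjusted p = 0.744; exact permutation p = 0.2). Without both distant libraries the groups no longer overlapped, as for 23.4% of all tested genes in the higher direction in that smaller comparison.

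Ftl1 (chromosome 7, 45457944 to 45459884) encodes the ferritin light chain, which helps form the mineral core. It read 4062, 4885 and 4663 FPKM in the controls, against 4201, 5932 and 4264 FPKM in the knockouts. Only ACSS2-HKO replicate 2 lay above the controls. The means were 4537 ± 426 and 4799 ± 982 FPKM (SD, n = 3). Its log2 fold change was 0.07 ± 0.26 (95% interval -0.53 to 0.66, limma adjusted p = 0.960; exact permutation p = 0.8), with its sign turning to -0.10 under median-ratio scaling and -0.04 under quantile normalization. Both ferritin genes have annotated pseudogenes, 5 named after Fth and 2 after Ftl, and how fragments shared with them were counted is not known here. A gene on the opposite strand, Gm10252, also overlaps exons of Ftl1.

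Ferritin RNA was abundant in both groups, with Ftl1 at rank 12 and Fth1 at rank 17 of the 9818 tested genes by level in the controls. The 2 genes together took 0.627%, 0.730% and 0.798% of fragments in the controls, against 0.80%, 0.957% and 0.712% in the knockouts, with overlap. The heavy to light chain ratio of FPKM values was 0.609, 0.558 and 0.786 in the controls, against 0.991, 0.683 and 0.744 in the knockouts, also with overlap. The lowest ferritin share was that of ACSS2-flox replicate 1.

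Aco1 (chromosome 4, 40143081 to 40198338) encodes IRP1, which is a cytosolic aconitase when it holds an iron-sulfur cluster and an RNA-binding protein when it does not. It read 51.8, 59.8 and 63.4 FPKM in the controls, against 69.2, 60.1 and 52.9 FPKM in the knockouts. The groups covered nearly the same range. It had a log2 fold change of 0.05 ± 0.18 (95% interval -0.36 to 0.47, limma adjusted p = 0.953; exact permutation p = 0.7), with its sign turning to -0.11 under median-ratio scaling and -0.07 after the correction for gene length.

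Ireb2 (chromosome 9, 54863789 to 54912530) encodes IRP2, which is degraded when iron is plentiful and is controlled mostly as a protein. It read 7.92, 9.0 and 10.0 FPKM in the controls, against 7.61, 8.04 and 6.92 FPKM in the knockouts. ACSS2-HKO replicate 2 lay just above ACSS2-flox replicate 1, and all other ACSS2-HKO values lay below the controls. The means were 8.99 ± 1.06 and 7.52 ± 0.568 FPKM (SD, n = 3) and their ratio 0.837. On the log2 scale the fold change was -0.23 ± 0.17 (95% interval -0.62 to 0.17, limma adjusted p = 0.767; exact permutation p = 0.2), and it ran from -0.38 to -0.15 over its 19 alternatives, negative in each. Ireb2 was the only one of the 10 genes with its highest value in a control library and its lowest in an ACSS2-HKO library.

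Ratios between genes of 1 library do not depend on the library total, and they are given as a description with no test. How often ratios of other gene pairs separate the groups was not computed. A ratio without overlap thus has no background share beside it. The ratio of Ireb2 to Aco1, the 2 iron-regulatory protein genes, was 0.153, 0.151 and 0.158 in the controls, against 0.110, 0.134 and 0.131 in the knockouts. The controls lay within a narrow band and all ACSS2-HKO libraries below it, a log2 difference of -0.31 with SDs of 0.04 and 0.15 (n = 3 each). The ratio of Slc40a1 to Tfrc, export against uptake, was 24.3, 63.9 and 19.0 in the controls, against 16.2, 12.4 and 18 in the knockouts. These groups did not overlap either, but the lowest control and the highest ACSS2-HKO library were close, and the log2 difference of -1.01 stood beside SDs of 0.93 and 0.27.

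The ratio of Tfrc to Fth1, uptake against storage, was -10.23, -11.00 and -9.98 on the log2 scale in the controls, against -10.02, -9.46 and -8.88 in the knockouts. Only ACSS2-HKO replicate 1 lay within the control range. The mean difference was 0.95 with SDs of 0.53 and 0.57. The ratio of Trf to Tfrc, carrier against receptor, overlapped between the groups, with 3175, 5362 and 2027 in the controls, against 2098, 1585 and 2864 in the knockouts.

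**Figure D4:**
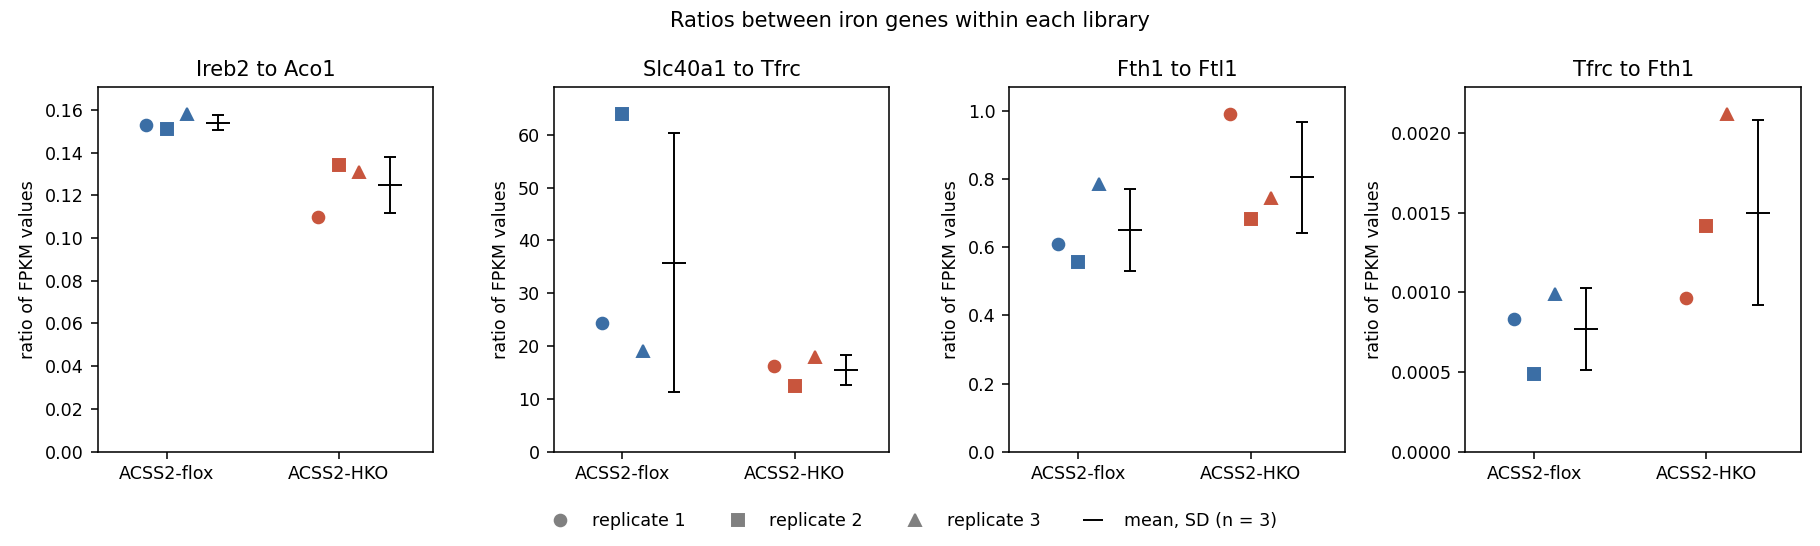
Ratios of FPKM values within each library (linear axes) for 4 pairs of iron genes, with the mean and SD (n = 3) of each group in black. Ireb2 to Aco1 is 0.151 to 0.158 in the controls and 0.110 to 0.134 in ACSS2-HKO, Slc40a1 to Tfrc also separates the groups, and the other ratios overlap. The share of other gene pairs that separate the groups was not computed.

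Levels per gene length spanned a wide range. By control mean of FPKM the order was Trf, Ftl1, Fth1, Slc40a1, Aco1, Slc39a14, Ireb2, Steap3, Slc11a2 and Tfrc. The ranges over the 6 libraries overlapped between the neighbours Ftl1 and Fth1, Slc40a1 and Aco1, Steap3 and Slc11a2, and Slc11a2 and Tfrc, and the other neighbours were apart. Transferrin and ferritin RNA thus stood well above the transporters and IRP1, and the receptor, the endosomal reductase and DMT1 lay at the low end.

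The extremes of these genes were set against those of all tested genes. ACSS2-flox replicate 1 had the lowest value of all 6 libraries for 7 of the 10 genes and for 52.9% of all tested genes. ACSS2-HKO replicate 3 had the highest value for 5 of the 10 and for 21.3% of all tested genes. Compared with the other controls, ACSS2-flox replicate 1 was high in short genes and low in long ones. The ferritin genes did not follow their length class. Fth1 (length 942 bases) read -0.35 and Ftl1 (970 bases) -0.23 against the other controls on the log2 scale, where the median of tested genes of like length was 0.28. Steap3 (3319 bases) stood at 0.40 against -0.34 for genes of its length, and Tfrc (5149 bases) at -0.10 against -0.43. The long genes Slc39a14 (-0.49 against -0.55) and Slc11a2 (-0.68 against -0.48) lay closer to theirs. Ireb2, the longest of the 10 (8457 bases), did not, at -0.24 against -0.55.

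**Figure D5:**
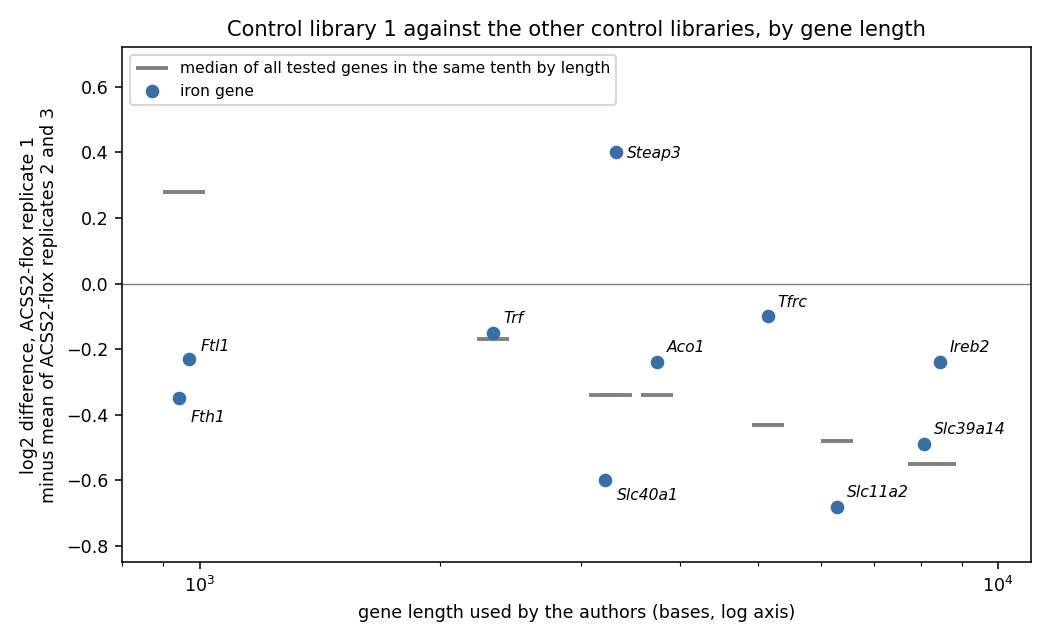
Log2 difference between ACSS2-flox replicate 1 and the mean of the other control libraries against gene length (log axis), with grey bars for the median of tested genes of like length. Fth1 (-0.35) and Ftl1 (-0.23) lie below the bar of the shortest genes (0.28), Steap3 (0.40) lies above its bar (-0.34), and Slc39a14 and Slc11a2 lie closer to theirs. Ireb2 (-0.24) lies above its bar (-0.55).

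Other genes known for iron-responsive elements were read beside them. The list held 10 genes with those above, 9 of them tested, 8 positive and 1 negative, with 0 past the adjusted threshold, 1 (Tfrc) higher at an unadjusted p under 0.05 and a median log2 fold change of 0.31. Over all tested genes 66.0% were positive, 6.09% were higher at that p and the median was 0.10. Of the genes outside the 10, Alas2, the haem synthesis enzyme of red cells, read -0.30 ± 0.34 on the log2 scale. It holds a hairpin of the searched form in the 5′ UTR. Epas1, which encodes the hypoxia factor HIF-2alpha, read 10.8, 26.7 and 41.1 FPKM in the controls, against 44.5, 29.5 and 45.0 FPKM in the knockouts, with overlap (0.74 ± 0.42, limma adjusted p = 0.692). The kinase gene Cdc42bpa read 0.10 ± 0.21, and the phosphatase gene Cdc14a, at means of 0.234 and 0.431 FPKM, was too low to be tested. The search found no hairpin in Epas1, Cdc42bpa or Cdc14a.

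Factors that act on the Tfrc message or gene were read for the same reason. Of 7 genes, 4 were positive and 3 negative, and 0 reached an unadjusted limma p under 0.05. Over all tested genes 66.0% were positive, and at that p 6.09% were higher and 1.50% lower. Zc3h12a, which encodes the RNase Regnase-1 that cuts the Tfrc 3′ UTR, read 0.613, 0.671 and 0.735 FPKM in the controls, against 1.66, 0.794 and 13.4 FPKM in the knockouts. Every ACSS2-HKO value lay above the controls, but only ACSS2-HKO replicate 3 far above (1.29 ± 0.65, limma adjusted p = 0.670). With a control mean of 0.673 FPKM, Zc3h12a reached the tested mean of 1 FPKM only through ACSS2-HKO. That favours its place among the 4 positive genes. The RNA-binding Roquin genes Rc3h1 (0.08 ± 0.31) and Rc3h2 (-0.03 ± 0.20) and the RNA decay factor gene Zfp36 (-0.05 ± 0.22) lay near 0. Myc, a transcription factor gene, read 1.22, 4.65 and 28 FPKM in the controls, against 5.87, 2.59 and 5.89 FPKM in the knockouts (-0.37 ± 0.79), and the hypoxia factor gene Hif1a 0.11 ± 0.27, with Epas1 as above.

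A wider list of iron genes had 26 names, of which 24 were in the table and 19 were tested. Of these, 15 were positive and 4 (Pcbp1, Pcbp2, Mcoln1 and Slc25a37) negative, with 0 past the adjusted threshold, 3 higher at an unadjusted limma p under 0.05 (6.09% of all tested genes were) and a median log2 fold change of 0.22 (0.10 over all). The background share of positive values was 66.0%. By role, 6 of the 10 listed uptake genes were tested, and all 6 were positive. Of the tested genes, 5 of 6 of mitochondrial iron use, 1 of 3 of storage and chaperones and 1 of 2 of lysosomal release were positive. The 1 tested export oxidase gene and the 1 tested sensing gene were positive too. Lcn2, the gene of lipocalin 2, a protein that binds bacterial iron chelators, read 4.79 ± 1.09 on the log2 scale (limma adjusted p = 0.554). Cp, the gene of the ferroxidase ceruloplasmin, read 214, 169 and 142 FPKM in the controls, against 319, 252 and 730 FPKM in the knockouts (1.17 ± 0.38, limma adjusted p = 0.637). Slc11a1, the gene of a phagosomal metal transporter of macrophages, read 0.93 ± 0.39, and the metalloreductase gene Steap4 1.86 ± 0.82 (limma adjusted p = 0.649 for each). Steap4 read 22.0, 29.2 and 33.6 FPKM in the controls, against 54.5, 39.7 and 508 FPKM in the knockouts, so ACSS2-HKO replicate 3 stood far above here too. Lcn2 and Cp are also on the acute phase list.

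The genes whose log2(FPKM + 1) values lay closest to those of an iron gene over the 6 libraries were named by Pearson correlation, as a description, since the libraries share their totals and the distant libraries weigh heavily. For Tfrc they were Cby1 (0.993), Eipr1 (0.992) and Ccdc32 (0.986), and 100 genes lay above 0.9. For Fth1 they were Ccl25 (0.992), Prxl2b (0.985) and Cygb (0.981), with 166 above 0.9. For Slc40a1 they were Metrnl (0.993), Serpina3g (0.989) and Tfe3 (0.986), with 255 above 0.9, and for Slc39a14 Tacc2 (0.999), Man2b1 (0.998) and Niban1 (0.997), with 590 above 0.9. The number of genes that lie as close differs several-fold between the iron genes, and is smallest for Tfrc among these 4.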

How the data were processed

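The deposited table holds FPKM values of 16135 genes in 6 liver libraries, computed by the authors. Build mm10 and DESeq2 are named, without their roles, per the submitters' processing notes. The sources used here do not give the aligner, counter, annotation or use of strand. Whole fragment counts, within 0.01, were recovered from the FPKM values for 15342 genes (95.1%), and gave gene lengths and library totals. 99.2% to 99.4% of fragments lay in genes of the table.

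Genes averaging 1 FPKM or more, 9818 in all, were tested on log2(FPKM + 1) with limma 3.58.1 in R 4.3.3 (lmFit, eBayes with trend), two-sided, with Benjamini-Hochberg adjustment over all tested genes and a threshold of 0.05. Errors of fold changes are standard errors. The pseudocount of 1 shrinks fold changes of low genes. Exact permutation tests used single genes. Scripts were tested on simulated data. Named genes are the 10 iron genes, Acss2, Hamp and Hamp2, the 4 of smallest p of the wider iron list, the genes of the iron-responsive element and Tfrc control lists (1 of them is not reported here), and the 3 closest genes of 4 iron genes. The neutrophil, erythroid and proliferation markers and the 4 wider-list genes with negative values were named after their values were seen. The overlapping genes were named from the annotation. The genes and lists were chosen with earlier results of these data known, and so was the pair of libraries left out together. Alternatives were pseudocounts of 0.1 and 5, no filter and a filter at 5 FPKM, median-ratio, TPM and quantile scaling, a loess gene length correction (span 0.5), other variance models, the replicate number as a block, limma voom on the recovered fragments, and libraries left out. Counts of genes without overlap under other settings were added after seeing the data.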

Additional observations from a re-analysis of the deposited data

How the results depend on the processing

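The number of iron genes past the limma adjusted threshold was 0 in every alternative run. Of 189 pairs of an iron gene and an alternative, 180 kept the direction and the side of the threshold and 9 changed sign. The sign turned for Ftl1 with median-ratio scaling (-0.10) and quantile normalization (-0.04), and it lay between -0.10 and 0.15 when each library was left out in turn. It turned for Aco1 with median-ratio scaling (-0.11) and the gene length correction (-0.07), and lay between -0.04 and 0.15 when each library was left out in turn. For Slc40a1 it was -0.16 without both distant libraries. The cause was not tested. The filter at 5 FPKM left Tfrc untested. Over all genes, limma called 0 past the adjusted threshold, and 0 to 3 with single libraries left out, the 3 without ACSS2-HKO replicate 2. With the replicate number as a block it called 4 (smallest adjusted p 0.0462, over all alternatives 0.0297 to 0.760), none of them an iron gene. No pairing of libraries by number is given in the sources used here. The deviations of same-numbered libraries from their group means correlated at 0.01, 0.00 and -0.06. The distant libraries weigh heavily on these values, so they cannot show whether libraries were paired. Genes at an unadjusted p under 0.05 numbered 598 higher and 147 lower, 917 and 212 with no filter, 311 and 119 with the 5 FPKM filter, 317 and 347 with median-ratio scaling, 391 and 357 with quantile normalization, 394 and 393 with the gene length correction, 560 and 137 with voom, 502 and 460 without ACSS2-flox replicate 1, 282 and 74 without ACSS2-HKO replicate 3, and 527 and 371 without both. The iron genes at that p were 2, and 1 to 3 over the alternatives. Their median was 0.20 with median-ratio scaling, 0.23 without ACSS2-flox replicate 1 and 0.08 without both distant libraries. Depth limits Tfrc most, at 254 fragments in its lowest library.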
